A study of Mus musculus with 27 samples.

Results

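The Hippo pathway was followed through 10 genes: the co-activators Yap1 and Wwtr1, the DNA-binding partners Tead1 and Tead2, the angiomotin genes Amot, Amotl1 and Amotl2, the adaptor gene Ajuba, and the Yap target genes Ctgf and Cyr61. They were taken by symbol from the 23608 entries of the deposited expression table, and all 10 were found in each of its 19 RNA-seq libraries. The genes were picked because their levels differed among these same libraries, so their values and differences are given as a description, with no test. The series is about formative pluripotent stem cells (fPSCs), mouse cells held in a state between naive embryonic stem cells and the primed cells of the later epiblast.

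The labels give every library as wild type, though 3 of the lines used carry reporters: Sox1-GFP in 46C, Blimp1 and Stella reporters in BVSC, and a membrane tdTomato/GFP reporter in ROSAmTmG. There were 2 libraries of naive mouse embryonic stem cells (mESCs), grown without feeders on gelatin in N2B27 medium with PD035901, Chir99021 and hLIF. There were 2 of epiblast-like cells (EpiLCs), made from them with KSR, Activin A and bFgf2. The 2 libraries of epiblast stem cells (EpiSCs) came from cells on Mitomycin C-treated embryonic fibroblasts with KSR, Activin A, bFGF2 and XAV939. Epiblastoids, single mESCs grown inside Matrigel with KSR, Activin A and bFgf2, gave 1 library each at days 2, 3 and 4. The 7 fPSCs libraries came from cells kept in Matrigel with Activin A, bFgf2 and XAV939, and fell into 2 deposits. The first deposit held passages P10, P20 and P30, for which the labels name no line and which the study's text gives as CMT. The second held the lines CMT (P11, from cryopreserved cells per the study's text), 46C (P24), BVSC (P14) and ROSAmTmG (P12). An early passage (P1) and fPSCs derived from E5.5 and E6.5 epiblasts had 1 library each. XAV939 was thus shared by EpiSCs and fPSCs and absent from the mESCs, EpiLCs and Epiblastoids. The labels do not say whether libraries with different replicate numbers came from separate cultures, so p-values measure the spread between these libraries, which may be technical. For each gene 1 estimate of the spread was shared by mESCs, EpiLCs, EpiSCs and the 7 fPSCs libraries. Errors and p-values of EpiLCs or EpiSCs against mESCs thus also hold the spread among fPSCs, which mix lines, passages and deposits. Of these, P10, P20, P30 and P11 are passages of the same line, CMT, per the study's text, and not separate lines.

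In the Hippo pathway the kinases Stk3 and Stk4 (Mst2 and Mst1) activate Lats1 and Lats2, which phosphorylate Yap and Taz (the product of Wwtr1) and keep them out of the nucleus. In the nucleus Yap and Taz bind Tead factors and raise the transcription of targets such as Ctgf and Cyr61, which encode secreted matricellular proteins. Angiomotins hold Yap at cell junctions and in the cytoplasm, and Ajuba binds Lats kinases and limits their action on Yap. XAV939 inhibits tankyrase, an enzyme that marks axin and angiomotin proteins for degradation. The libraries report messenger RNA and not protein, location or phosphorylation.

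The core of the sequence that Tead factors bind, GGAATG or its reverse complement CATTCC, was searched for in the 300 bases before the annotated start of 9 of the genes, all but Ctgf (mm9 build, GENCODE starts). It was present before 7 of the 9, and before 13.8% of the 22089 protein-coding genes. The sequences before Cyr61 and Amot are shown because the results turn on these genes; capitals mark the motif, and each is written 5′ to 3′ on the strand of its gene. The Cyr61 window is chr3:145312950-145313249 on the minus strand, and the Amot window is chrX:141939725-141940024 on the minus strand.
Cyr61: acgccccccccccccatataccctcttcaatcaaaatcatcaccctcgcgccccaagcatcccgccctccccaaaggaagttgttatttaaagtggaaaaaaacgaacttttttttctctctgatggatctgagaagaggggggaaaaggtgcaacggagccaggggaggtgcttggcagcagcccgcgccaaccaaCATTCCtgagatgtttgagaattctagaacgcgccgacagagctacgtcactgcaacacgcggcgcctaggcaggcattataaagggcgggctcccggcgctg
Amot: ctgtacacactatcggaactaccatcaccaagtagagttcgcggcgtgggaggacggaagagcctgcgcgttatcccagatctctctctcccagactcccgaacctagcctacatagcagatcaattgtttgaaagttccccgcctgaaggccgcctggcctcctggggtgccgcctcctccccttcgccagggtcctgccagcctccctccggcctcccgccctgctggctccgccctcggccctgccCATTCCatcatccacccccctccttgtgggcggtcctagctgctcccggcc
Cyr61 and Amot held 1 copy each on the opposite strand, at 103 and 51 bases before the start. Yap1, Wwtr1 and Amotl2 held 1 copy on the strand of the gene, Tead1 and Amotl1 held 1 on the opposite strand, and Tead2 and Ajuba held none in this window. For Amot, Amotl1 and Amotl2 the RefSeq start matched by sequence lay 17542, 28529 and 1132 bp from the start used, so these 3 of the 7 matches rest on the start chosen. The RefSeq start of Ajuba lay at −245 bp from the start used, so its lack of a match rests on that choice too. Tead1 had no RefSeq entry, and its start was not checked. A match is a description of these letters and not a bound site.

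Expression was given in FPKM, fragments scaled by transcript length and library size, which allows levels to be set side by side between genes. The FPKM of a library summed to between 307394 and 414727, with 10034 to 10933 genes at 1 FPKM or above. The read depth behind the values is unknown, because the table holds no counts. The labels were checked against marker genes. Summed FPKM of the pluripotency list was 1993 to 2102 in mESCs, 1271 to 1669 in EpiLCs, 1164 to 1925 in fPSCs and 510 to 511 in EpiSCs. The 18 fibroblast genes summed to 360 and 498 in EpiSCs, the cells grown on feeders, against 5.15 to 11.9 in mESCs, 22.4 to 24.9 in EpiLCs and 10 to 17.1 in fPSCs. In EpiSCs 14 of the 18 were at 1 FPKM or more, with Col1a1 at 111 and 153 FPKM, while Fap was at 0 in every library. The trophoblast list summed to 412 to 432 in EpiSCs, 66.7 to 161 in fPSCs, 29.8 to 41.3 in EpiLCs and 25.8 to 35.6 in mESCs. The share of fibroblast and other RNA in the EpiSCs values was not tested, and it stands beside every comparison with EpiSCs.

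**Figure D1:**
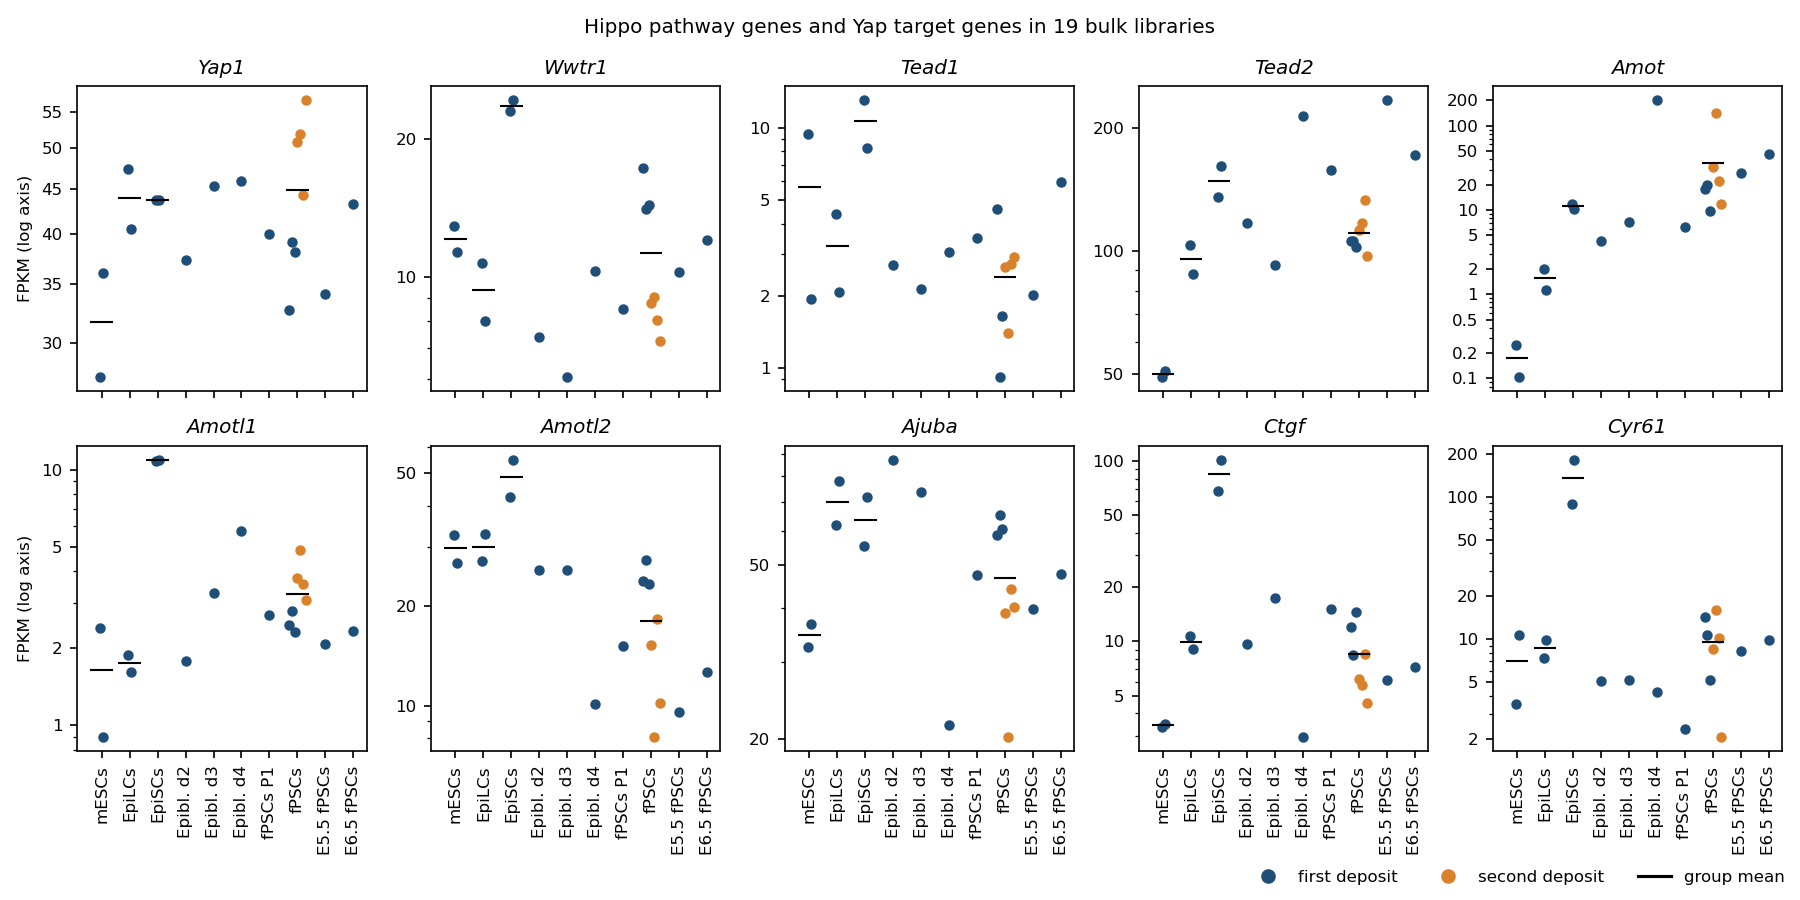
FPKM of the 10 genes (log axis) in each of the 19 libraries, 1 panel per gene and 1 point per library, with the libraries grouped along the horizontal axis, bars at the group means and colours for the deposits. Yap1 stays between 27.4 and 56.8 throughout, Amot runs from 0.103 in mESCs to 203 in day 4 Epiblastoids, and Ctgf and Cyr61 stand apart in the EpiSCs.

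Yap1 had the narrowest range of the 10 genes, within about a factor of 2. Its level was 27.4 and 36.0 FPKM in mESCs, 47.3 and 40.5 in EpiLCs, and 43.7 in both EpiSCs libraries. In fPSCs it ran from 32.8 through a median of 44.3 to 56.8 FPKM (44.8 ± 8.69, SD, n = 7). All 4 EpiLCs and EpiSCs libraries lay above both mESCs libraries, and the fPSCs overlapped every other group. On the log2(FPKM + 1) scale, used for all differences between groups, fPSCs differed from mESCs by 0.48 ± 0.20 (SE of the limma fit), from EpiLCs by 0.01 ± 0.20 and from EpiSCs by 0.01 ± 0.20.

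Wwtr1, the gene of Taz, was highest in EpiSCs at 22.9 and 24.3 FPKM. It was 12.9 and 11.3 in mESCs and 10.7 and 8.0 in EpiLCs, and in fPSCs it ran from 7.25 through 9.03 to 17.2 FPKM (11.2 ± 3.88, SD, n = 7). Both EpiSCs libraries lay above all 17 others, and the remaining groups overlapped apart from mESCs and EpiLCs, whose nearest libraries were 11.3 and 10.7. EpiSCs were 0.91 ± 0.35 above mESCs on the log2 scale, and fPSCs were 1.07 ± 0.28 below EpiSCs (log2 difference −1.07). In every library Wwtr1 had fewer FPKM than Yap1.

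Tead2 had the most FPKM of the 10 genes in every library but EpiSCs replicate 2, where Cyr61 was higher, and the 46C fPSCs, where Amot was higher. Its level was 49.0 and 50.9 FPKM in mESCs, 104 and 88.0 in EpiLCs and 135 and 161 in EpiSCs. The fPSCs ran from 97.4 through 106 to 133 FPKM (111 ± 11.9, SD, n = 7). mESCs lay below every other library, EpiSCs lay above all EpiLCs and fPSCs, and EpiLCs and fPSCs overlapped. The log2 difference from mESCs was 0.92 ± 0.18 for EpiLCs, 1.54 ± 0.18 for EpiSCs and 1.13 ± 0.15 for fPSCs. The E5.5 and E6.5 fPSCs had 234 and 172 FPKM, above all 7 other established fPSCs libraries.

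Tead1 was lower and less steady between replicates. It was 9.45 and 1.94 FPKM in the mESCs, 4.39 and 2.08 in EpiLCs and 13.1 and 8.30 in EpiSCs, and in fPSCs it ran from 0.915 through 2.64 to 4.60 FPKM. The mESCs libraries lay further apart than the EpiLCs or EpiSCs libraries, so the sign of the difference from mESCs depended on which of them was used. The log2 difference of EpiLCs from mESCs was −0.44 ± 0.57 with both, 0.47 without mESCs replicate 1 and −1.36 without mESCs replicate 2, and that of fPSCs was −0.78 ± 0.46 with both and 0.13 without mESCs replicate 1. All fPSCs lay below both EpiSCs libraries, with a log2 difference of −1.83 ± 0.46.

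Amot had the widest range of the 10 genes. It was 0.249 and 0.103 FPKM in mESCs, 2.01 and 1.1 in EpiLCs and 11.7 and 10.3 in EpiSCs. In the fPSCs it was 17.6, 19.8 and 9.76 FPKM at P10, P20 and P30, and 32.1 in CMT, 142 in 46C, 22.4 in BVSC and 11.8 in ROSAmTmG (36.5 ± 47.2, SD, n = 7; median 19.8). The order was mESCs below EpiLCs below EpiSCs without overlap, while fPSCs lay above both mESCs and EpiLCs and overlapped EpiSCs through P30. On the log2 scale fPSCs were 4.41 ± 0.71 above mESCs, 3.30 ± 0.71 above EpiLCs and 1.05 ± 0.71 above EpiSCs. The pseudocount of 1 compresses the mESCs values, and at 0.1 the difference of fPSCs from mESCs was 6.48. fPSCs at P1 had 6.23 FPKM, below the 7 later libraries and above EpiLCs, and the E5.5 and E6.5 fPSCs had 27.4 and 46.3.

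Amot was followed together with a list of 10 endoderm genes, 1 of the marker lists with high sums in the same libraries. The 5 libraries with the highest summed FPKM of the list were day 4 Epiblastoids (718), 46C (451), E5.5 fPSCs (260), E6.5 fPSCs (181) and CMT (111), and they were the 5 highest in Amot. The primitive streak and mesoderm list was also high in 4 of them, with 757 FPKM in day 4 Epiblastoids, 254 in 46C, 163 in E5.5 and 147 in E6.5 fPSCs, against 78.8 in CMT, 108 at most in EpiSCs and 3.27 to 3.93 in EpiLCs. The trophoblast list gave 258, 161, 170 and 101 FPKM in the same 4 libraries, below its EpiSCs sums. Cer1 was 295 FPKM in day 4 Epiblastoids and 203 in 46C, Foxa2 52.8 and 81.9, and Sox17 68.7 and 50.6, while Afp stayed at or under 0.09 in every library and Ttr near 0. The sums in the other fPSCs were 13.3 to 86.4, in EpiSCs 24.7 and 17.8, and in EpiLCs 3.36 and 2.30. The mESCs went the other way, with sums of 8.72 and 6.20 above those of EpiLCs but the lowest Amot of all. In bulk libraries more cells of a type and more RNA per cell cannot be told apart, and the part of cells of any of these lineages in the Amot values was not tested.

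**Figure D2:**
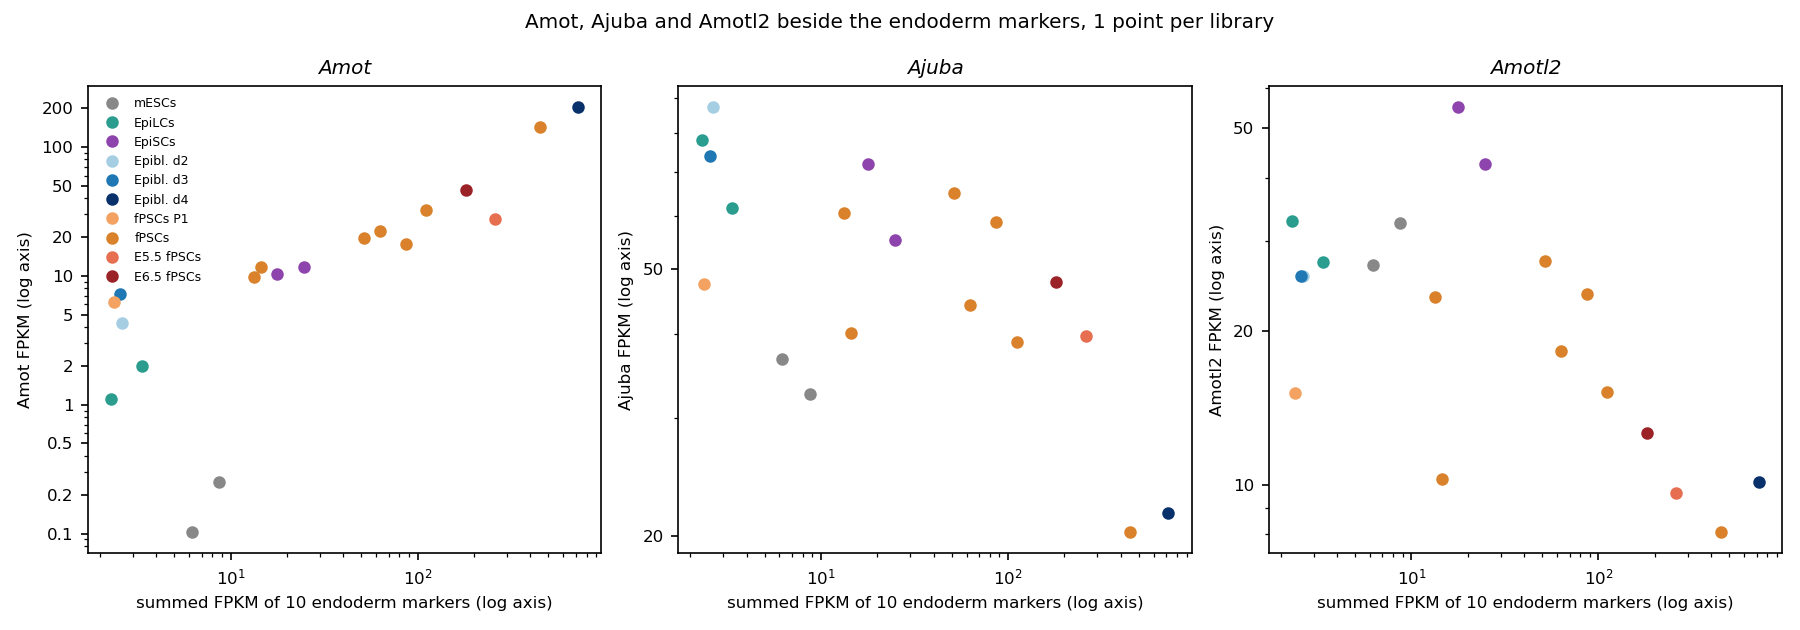
FPKM of Amot, Ajuba and Amotl2 (vertical, log axis, 1 panel per gene) against the summed FPKM of the 10 endoderm genes (horizontal, log axis), 1 point per library, coloured by group. The 5 libraries with sums of 111 to 718 are the 5 highest in Amot, and the mESCs lie lowest in Amot at sums of 6.20 and 8.72.

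The other angiomotins had narrower ranges than Amot. Amotl1 was 2.39 and 0.900 FPKM in mESCs, 1.88 and 1.62 in EpiLCs and 10.8 and 10.9 in EpiSCs. In fPSCs it ran from 2.32 through 3.08 to 4.86 FPKM (3.27 ± 0.879, SD, n = 7), above both EpiLCs and below both EpiSCs libraries. The log2 difference of fPSCs was 0.61 ± 0.24 from EpiLCs and −1.50 ± 0.24 from EpiSCs. Among the fPSCs it was highest in 46C, as Amot was. Amotl2, the most abundant angiomotin in mESCs, EpiLCs and EpiSCs, was 32.6 and 27 FPKM in mESCs, 27.3 and 32.8 in EpiLCs and 42.5 and 55.0 in EpiSCs, and ran from 8.06 through 18.3 to 27.5 FPKM in fPSCs. EpiSCs lay above all other libraries, and the highest fPSCs value reached those of mESCs and EpiLCs. The 46C fPSCs and day 4 Epiblastoids, the highest in Amot, had 8.06 and 10.1 FPKM of Amotl2. Together with E5.5 fPSCs at 9.61 FPKM these were the 3 lowest Amotl2 values of the 19 libraries. ROSAmTmG fPSCs came next at 10.2 FPKM, and their Amot was low among the fPSCs at 11.8.

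Ajuba was 32.6 and 36.7 FPKM in mESCs, 61.8 and 77.9 in EpiLCs and 55.3 and 71.8 in EpiSCs. The fPSCs ran from 20.3 in 46C through a median of 44.3 to 65.1 FPKM at P20 (46.9 ± 15.7, SD, n = 7). mESCs lay below all EpiLCs and EpiSCs libraries, and the fPSCs overlapped all of these groups. The log2 difference was 0.98 ± 0.43 for EpiLCs against mESCs, 0.85 ± 0.43 for EpiSCs against mESCs and −0.64 ± 0.34 for fPSCs against EpiLCs.

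Ctgf and Cyr61 were both highest in EpiSCs. Ctgf was 3.38 and 3.51 FPKM in mESCs, 10.8 and 9.04 in EpiLCs and 68.6 and 102 in EpiSCs, and ran from 4.56 through 8.38 to 14.6 FPKM in fPSCs (8.57 ± 3.60, SD, n = 7). mESCs lay below every EpiLCs, EpiSCs and fPSCs library, EpiLCs and fPSCs overlapped, and the EpiSCs stood above all other libraries, whose highest was 17.4 FPKM. The log2 difference was 4.25 ± 0.42 between EpiSCs and mESCs, 1.02 ± 0.33 between fPSCs and mESCs, and −3.23 ± 0.33 between fPSCs and EpiSCs.

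Cyr61 was 3.49 and 10.7 FPKM in mESCs, 7.41 and 9.92 in EpiLCs and 89.0 and 182 in EpiSCs, and ran from 2.06 through 10.1 to 16.1 FPKM in fPSCs (9.58 ± 4.89, SD, n = 7). Apart from EpiSCs the groups overlapped. The log2 difference was 4.15 ± 0.71 between EpiSCs and mESCs, 0.37 ± 0.57 between fPSCs and mESCs, and −3.78 ± 0.57 between fPSCs and EpiSCs. Without mESCs replicate 1 the second of these was −0.32. Both genes are also well known in fibroblasts, and the fibroblast sums of 360 and 498 FPKM stand in the same 2 EpiSCs libraries.

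**Figure D3:**
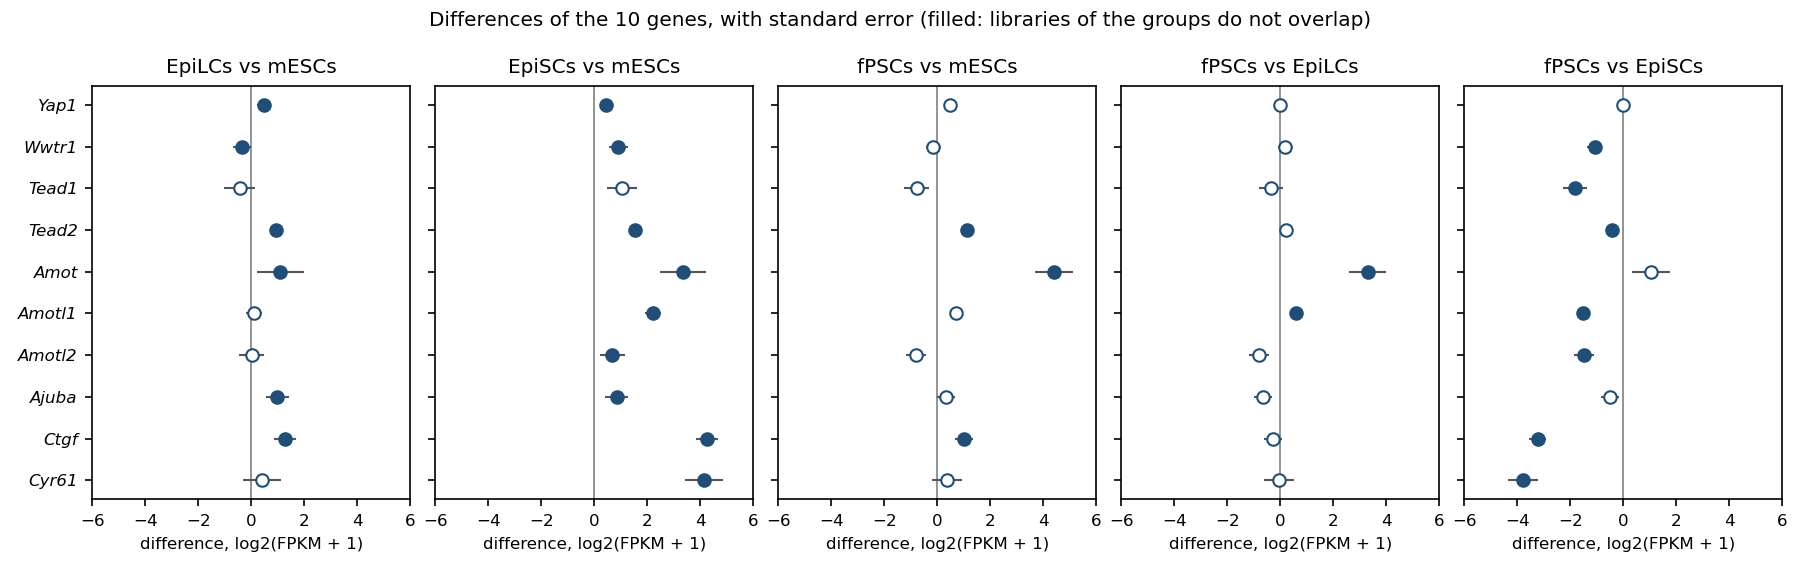
Log2 differences of the 10 genes between groups, on the log2(FPKM + 1) scale, with bars of 1 SE from the limma fit, 1 panel per comparison. Amot has the largest difference of fPSCs from mESCs (4.41) and from EpiLCs (3.30), and Cyr61 (−3.78) and Ctgf (−3.23) have the largest differences of fPSCs from EpiSCs.

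The genes were counted in each comparison where the libraries of both groups did not overlap and the fold change was at least 1.5. Because the choice of the genes used these libraries, the share of all 12513 tested genes that met the same rule is given beside each count and nothing is read from it. EpiLCs were higher than mESCs in 4 of the 10 (Tead2, Amot, Ajuba and Ctgf; 18.4% of all genes) and lower in 0 (24.8%). EpiSCs were higher than mESCs in 8, all but Yap1 and Tead1 (27.5%), and lower in 0 (31.7%). fPSCs were higher than mESCs in 3 (Tead2, Amot and Ctgf; 17.7%) and lower in 0 (23.4%). They were higher than EpiLCs in 2 (Amot and Amotl1; 7.59%) and lower in 0 (9.39%). Against EpiSCs they were higher in 0 (15.2%) and lower in 6 (Wwtr1, Tead1, Amotl1, Amotl2, Ctgf and Cyr61; 19.5%). The comparisons share groups and are not independent of each other.

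The Epiblastoids addressed how the pathway moved while mESCs passed through the formative state in Matrigel. The study described the day 4 cells as irregular colonies. It reported that genes higher at day 4 than at day 3 were enriched for Wnt, TGF-beta and Hippo terms. With the Yap inhibitor Verteporfin, tried to prevent the collapse, it saw lumens form and then severe cell death on passaging. The counts given here, over the 10 genes and a Hippo list, are another measure and do not repeat the study's enrichment. Each day had 1 library, so the ratios have no replicate check and no p-value. Amot was 4.31 FPKM at day 2, 7.20 at day 3 and 203 at day 4. Ajuba was 87.3, 73.7 and 21.6, and Amotl2 was 25.7, 25.7 and 10.1. Ctgf was 9.67 at day 2, 17.4 at day 3 and 2.95 at day 4, its lowest value in the 19 libraries. From day 3 to day 4 the log2 ratio was 4.64 for Amot and 1.21 for Tead2, and −2.22 for Ctgf, −1.72 for Ajuba and −1.26 for Amotl2. Yap1 (0.02), Cyr61 (−0.23), Tead1 (0.37), Amotl1 (0.66) and Wwtr1 (0.68) stayed within 1 on the log2 scale. Past 1 there were thus 2 of 10 genes higher and 3 lower, against 7.85% and 8.22% of all genes, whose median log2 ratio was −0.14. From day 2 to day 4 the counts were 2 (Amot at 5.27 and Amotl1 at 1.29) and 3 (the same genes as from day 3), against 8.67% and 6.56%. From day 2 to day 3 none of the 10 passed 1, against 3.11% of all genes higher and 2.47% lower (median 0.12), and the nearest were Ctgf (0.78), Amot (0.63) and Amotl1 (0.62). In day 4 Epiblastoids the endoderm sum was 718 FPKM against 2.56 at day 3, and the list of primitive streak and mesoderm genes summed to 757 against 52.1. The part of such cells in the ratios was not tested.

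Of the other Hippo genes at 1 FPKM or more at day 3 or day 4, 2 of 32 were higher past a log2 ratio of 1 at day 4 and 2 were lower, which is near the 7.85% and 8.22% of all genes and is no result about the pathway. Tead4, a Tead factor of the trophectoderm, went from 0.40 to 9.50 FPKM, and Vgll4, a cofactor that competes with Yap for Tead, from 1.13 to 7.25. Wwc1 (Kibra), an upstream activator of Lats kinases, went from 19.2 to 7.22 FPKM and the phosphatase gene Ptpn14, whose product binds Yap, from 9.31 to 3.10. From day 2 to day 3, 1 of 30 was higher (Nt5e) and 1 lower (Mob1b), near the 3.11% and 2.47% of all genes. Tead4 and Vgll4 were among the genes named for their role, and Wwc1, Ptpn14, Nt5e and Mob1b are named here after their values were seen.

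Within the 7 fPSCs libraries some of the 10 genes did not overlap between the deposits. The share of all genes was taken only for the rule with a fold threshold, given below. Yap1 (51 ± 5.16 against 36.7 ± 3.43 FPKM) and Amotl1 (3.82 ± 0.75 against 2.54 ± 0.248) were higher in the 4 libraries of the second deposit than in the 3 of the first (mean ± SD). Wwtr1 (8.28 ± 0.800 against 15.2 ± 1.77), Amotl2 (12.9 ± 4.65 against 24.8 ± 2.29) and Ajuba (35.9 ± 10.7 against 61.5 ± 3.24) were lower in it. With a fold of at least 1.5 this left 3 of 10 lower and 0 higher, where 8.77% of 10930 genes were lower and 20.5% higher between the deposits. Ctgf was 6.26 ± 1.68 against 11.7 ± 3.11 FPKM and overlapped, and Tead1, Tead2, Amot and Cyr61 overlapped too. The deposits differed in library protocol, line, passage and, for CMT P11, cryopreservation, and for 46C, BVSC and ROSAmTmG these cannot be told apart. With the first deposit alone, the log2 difference of fPSCs from mESCs was 1.48 for Ctgf in place of 1.02, and that from EpiSCs was −0.61 for Wwtr1 in place of −1.07. Against EpiLCs, Ajuba gave −0.17 with the first deposit alone and −0.99 with the second alone. Amotl1 against EpiLCs gave 0.36 and 0.80, and the first of these is under the fold of 1.5. The sign depended on the deposit for Ctgf against EpiLCs (0.19 and −0.61) and Wwtr1 against mESCs (0.30 and −0.50). Tead2 and Amot kept their sign in every comparison.

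The remaining Hippo genes were taken from a list of 44, chosen with earlier results of these data known. Counts over it thus support no direction independently. Of the 44, 39 passed the filter on low values and were tested by limma with the Benjamini-Hochberg adjustment over all 12513 genes. The list held the kinase cascade and its regulators (20 tested), the other Tead and Vgll genes (4) and further Yap targets (15). In EpiSCs against mESCs 22 of the 39 rose and 1 fell, against 23.1% and 24.7% of all genes, with a median log2 difference of 1.13 over the list and −0.09 over all genes. Among the targets 13 of 15 rose. Axl, a receptor tyrosine kinase, rose by 4.73 ± 0.22 (adjusted p = 2.83e-09) to 57.5 and 74.7 FPKM. Ankrd1, a cardiac ankyrin repeat protein, was listed at 0 in both mESCs libraries and at 10.6 and 11 FPKM in EpiSCs (adjusted p = 1.29e-11), and Tgfb2, a secreted growth factor, rose by 3.50 ± 0.52 (adjusted p = 0.000129). In the cascade 7 of 20 rose, among them Lats2 by 2.67 ± 0.30 (adjusted p = 1.07e-05) to 5.82 and 7.97 FPKM. Stk3 alone fell, by 0.75 ± 0.28 (adjusted p = 0.0411), a call that was lost when any 1 library of these groups was left out. Tead3 rose by 2.33 ± 0.24 (adjusted p = 5.94e-06), while Tead4 gave −0.74 (adjusted p = 0.229) and Vgll4 0.04 (adjusted p = 0.951). Lats1 rose by 0.89 ± 0.27 (adjusted p = 0.0152), a call lost without either mESCs library or EpiSCs replicate 1. Stk4 (0.18, adjusted p = 0.556) and Nf2, the gene of the upstream activator Merlin (0.75, adjusted p = 0.176), did not pass the test. The fibroblast sums of 360 and 498 FPKM in EpiSCs stand beside these counts.

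In fPSCs against EpiSCs 1 of the 39 rose and 22 fell, against 13.3% and 19% of all genes, with a median log2 difference of −1.01 over the list and 0.02 over all genes. Among the targets 12 of 15 fell, and so did all 4 Tead and Vgll genes. Vgll4 was the weakest of these, with overlapping libraries and a log2 difference of −1.01 (adjusted p = 0.0462), a call lost under most alternatives. Axl fell by 5.24 ± 0.18 (adjusted p = 2.23e-10), Myof, a membrane repair protein, by 3.39 ± 0.23 (adjusted p = 1.44e-07) and Tgfb2 by 3.08 ± 0.42 (adjusted p = 0.000101). Lats2 fell by 2.25 ± 0.24 (adjusted p = 1.15e-05), Tead4 by 2.14 ± 0.40 (adjusted p = 0.00118) and Tead3 from a mean of 14.4 FPKM in EpiSCs to 5.97 in fPSCs (adjusted p = 0.000833). The single gene that rose, the kinase gene Taok1, had a log2 difference of 0.73 ± 0.19 (adjusted p = 0.00918). Without EpiSCs replicate 2 its call was lost, and 15 of the 39 passed the test in all in place of 23.

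Against mESCs the fPSCs were higher in 12 and lower in 9 of the 39, where 17.3% and 23% of all genes were. Igfbp3, an IGF-binding protein, rose by 3.47 ± 0.56 (adjusted p = 0.000252) and Fjx1, a four-jointed family gene, by 2.53 ± 0.22 (adjusted p = 9.76e-07). Lats1 rose by 1.13 ± 0.21 (adjusted p = 0.000846), Mob1b, its co-activator, by 1.76 ± 0.41 (adjusted p = 0.00389; lost without mESCs replicate 1) and Tead3 by 1.22 ± 0.20 (adjusted p = 0.000240). Myof fell by 3.70 ± 0.23 (adjusted p = 3.40e-08) and Tead4 by 2.88 ± 0.40 (adjusted p = 6.40e-05). Frmd6, the mammalian Expanded homologue, fell by 1.45 ± 0.15 (adjusted p = 5.83e-06), Dock5 by 1.54 ± 0.19 (adjusted p = 2.90e-05) and Stk3 by 0.73 ± 0.22 (adjusted p = 0.0176; lost without either mESCs library). Tead4 was 13.2 and 9.17 FPKM in mESCs, 3.47 in 46C and 0.19 to 0.55 in the other fPSCs, so that every fPSCs library lay below both mESCs libraries. Only 6 genes rose without mESCs replicate 2.

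EpiLCs differed from mESCs in 6 genes higher and 6 lower of the 39, against 12.2% and 17.4% of all genes. Gadd45a, a stress-response gene, rose by 1.44 ± 0.20 (adjusted p = 0.000155) and Fjx1 by 1.71 ± 0.27 (adjusted p = 0.000408), while Myof fell by 3.64 ± 0.28 (adjusted p = 8.29e-07) and Tead4 by 3.07 ± 0.49 (adjusted p = 0.000414). The calls of Igfbp3 (adjusted p = 0.0442), Vgll4 (adjusted p = 0.00506) and Map4k4 (adjusted p = 0.00748) were lost when single libraries were left out. Leaving out mESCs replicate 2 or EpiLCs replicate 1 gave 3 genes that rose.

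Between fPSCs and EpiLCs 5 of the 39 passed the test, 3 higher and 2 lower, near the 5.66% and 8.15% of all genes. The first deposit alone gave 11 calls and the second alone 9. Gadd45a fell by 1.59 ± 0.16 (adjusted p = 1.92e-05). Fjx1 (0.82 ± 0.22, adjusted p = 0.0231) and Sav1, the scaffold of the Stk3 and Stk4 kinases (0.59 ± 0.17, adjusted p = 0.0372), rose but lost the call without either EpiLCs replicate, and Sav1, just past the fold threshold, lost it in 8 alternatives in all. Without EpiLCs replicate 1 there was 1 gene higher and 1 lower, and without EpiLCs replicate 2 there were 0 higher.

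**Figure D4:**
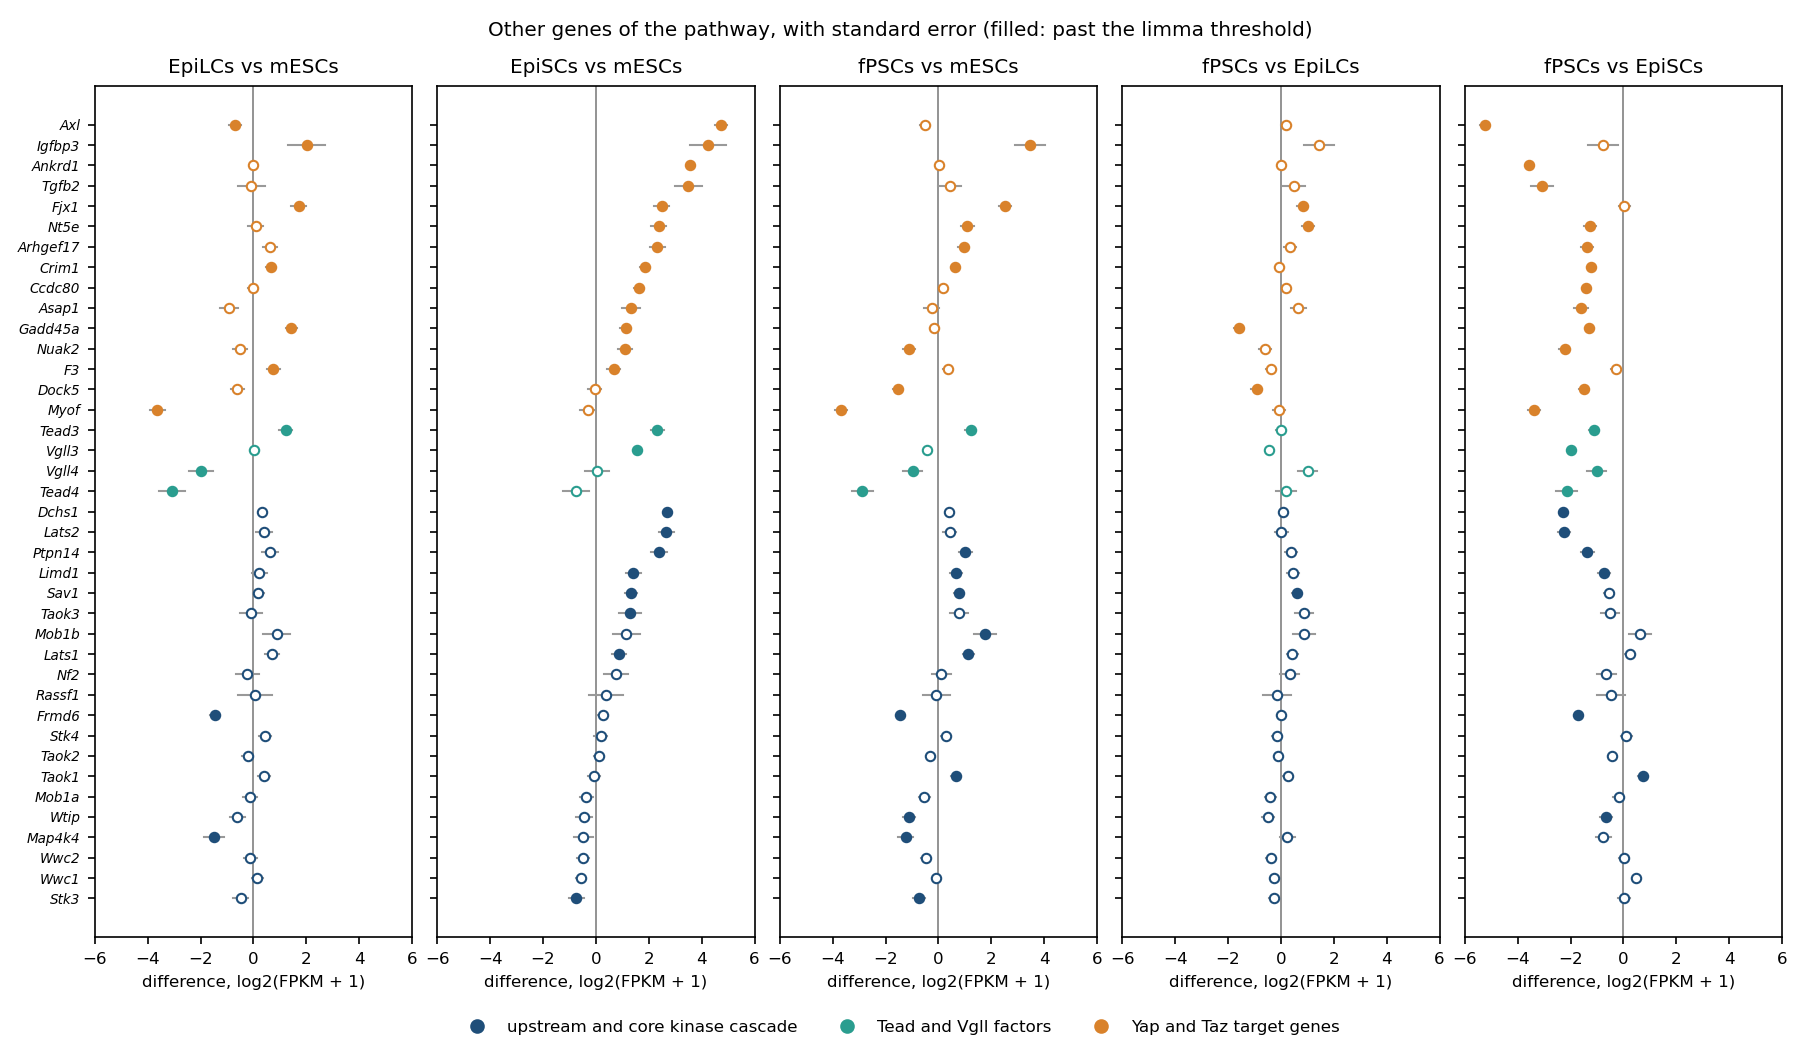
Log2 differences of the 39 tested Hippo genes in the 5 comparisons, on the log2(FPKM + 1) scale, grouped by the 3 lists, with bars of 1 SE and filled points for genes past the test. The targets lie to the right in EpiSCs against mESCs (13 of 15 higher) and to the left in fPSCs against EpiSCs (12 of 15 lower).

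The genes most like each of the 10 were found by Pearson's r of log2(FPKM + 1) over the 19 libraries among 7833 genes, as a description, since libraries of a group share their origin. Amot was nearest to Dnajc10 (r = 0.96), Slc38a3 (0.94) and Cyp26a1 (0.93), the last a retinoic acid hydroxylase. Ctgf was nearest to Vgf (0.93), Fosl1 (0.93) and Irs2 (0.92), Cyr61 to Anxa3 (0.91), and Amotl1 to Capn2 (0.95), Gpr153 (0.93) and Col4a1 (0.92). Ajuba was nearest to B3gnt7 (0.89), Amotl2 to Clu (0.88), Tead2 to Trib2 (0.90), Wwtr1 to Nfic (0.92), Tead1 to Ostm1 (0.82) and Yap1 to Gosr2 (0.84). Among the 10 themselves, r was 0.76 for Ctgf with Cyr61 and Spearman's rho was 0.28, since both genes were high in the same EpiSCs libraries and differed in order elsewhere. Amot with Amotl2 gave r = −0.65, Amot with Amotl1 gave 0.49 (rho 0.58) and Amot with Tead2 gave 0.72.

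Chromatin was profiled in fPSCs at P10, for which H3K4me3 (a mark of active promoters), H3K27me3 (a Polycomb mark) and DNA methylation were each read from 1 track, so that no spread between replicates can be given and the depth behind the methylation levels is unknown. The mean signal within 1000 bp to each side of the start was ranked among the 22089 protein-coding genes for the histone marks. For methylation the mean was ranked among the 21804 genes with a value. Ajuba had the most H3K4me3 of the 10, at 8.27 RPKM (percentile 91.7), followed by Wwtr1 and Cyr61 at 7.03 each (percentiles 86.6 and 86.5). Tead2 (5.47), Tead1 (5.41) and Amotl2 (5.29) lay at percentiles 76.9, 76.2 and 75.2, Amot (3.92) and Ctgf (3.79) at 62.7 and 61.6. Yap1 at 2.55 RPKM was at percentile 49.5, and it reached 79.3 when 5000 bp to each side were taken. The promoter median was 2.61 RPKM. H3K27me3 ran from 0 RPKM at Ajuba to 0.644 at Tead1 (percentile 72.3), with a median of 0.289 over all promoters. Wwtr1 (0.322), Ctgf (0.322) and Cyr61 (0.385) also lay above that median. With 5000 bp to each side H3K27me3 was 1.71 RPKM at Tead1 (percentile 91.9), 0.792 at Tead2 (76.3) and 0.689 at Cyr61 (72.1).

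Ctgf and Cyr61 differed in methylation at the start. The mean methylation level, the fraction of methylated cytosines in the windows measured, was 0.488 at Ctgf (percentile 56.9) and 0.0437 at Cyr61 (percentile 9.99), with a median of 0.358 over all promoters. Amot had 0.00824 (percentile 3.08), Wwtr1 0.00737, Ajuba 0.01, Tead1 0.0347 and Yap1 0.0385, while Amotl2 had 0.126 and Tead2 0.237. Amotl1 stood highest at 0.805, from 4 windows, with H3K4me3 of 1.30 RPKM (percentile 40.3). At another annotated Amotl1 start 28046 bp into the gene, chosen after the first value was seen, methylation was 0.361 and H3K4me3 2.74 RPKM (percentile 51.4), so its values rest on the start chosen. For Amot the other start, 17542 bp into the gene, had methylation of 0.985 and H3K4me3 of 0.124 RPKM (percentile 13.9). The gene positions in mm9 were chr3:145309935-145312949 for Cyr61, chrX:141880968-141939724 for Amot and chr9:14346410-14447973 for Amotl1.

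**Figure D5:**
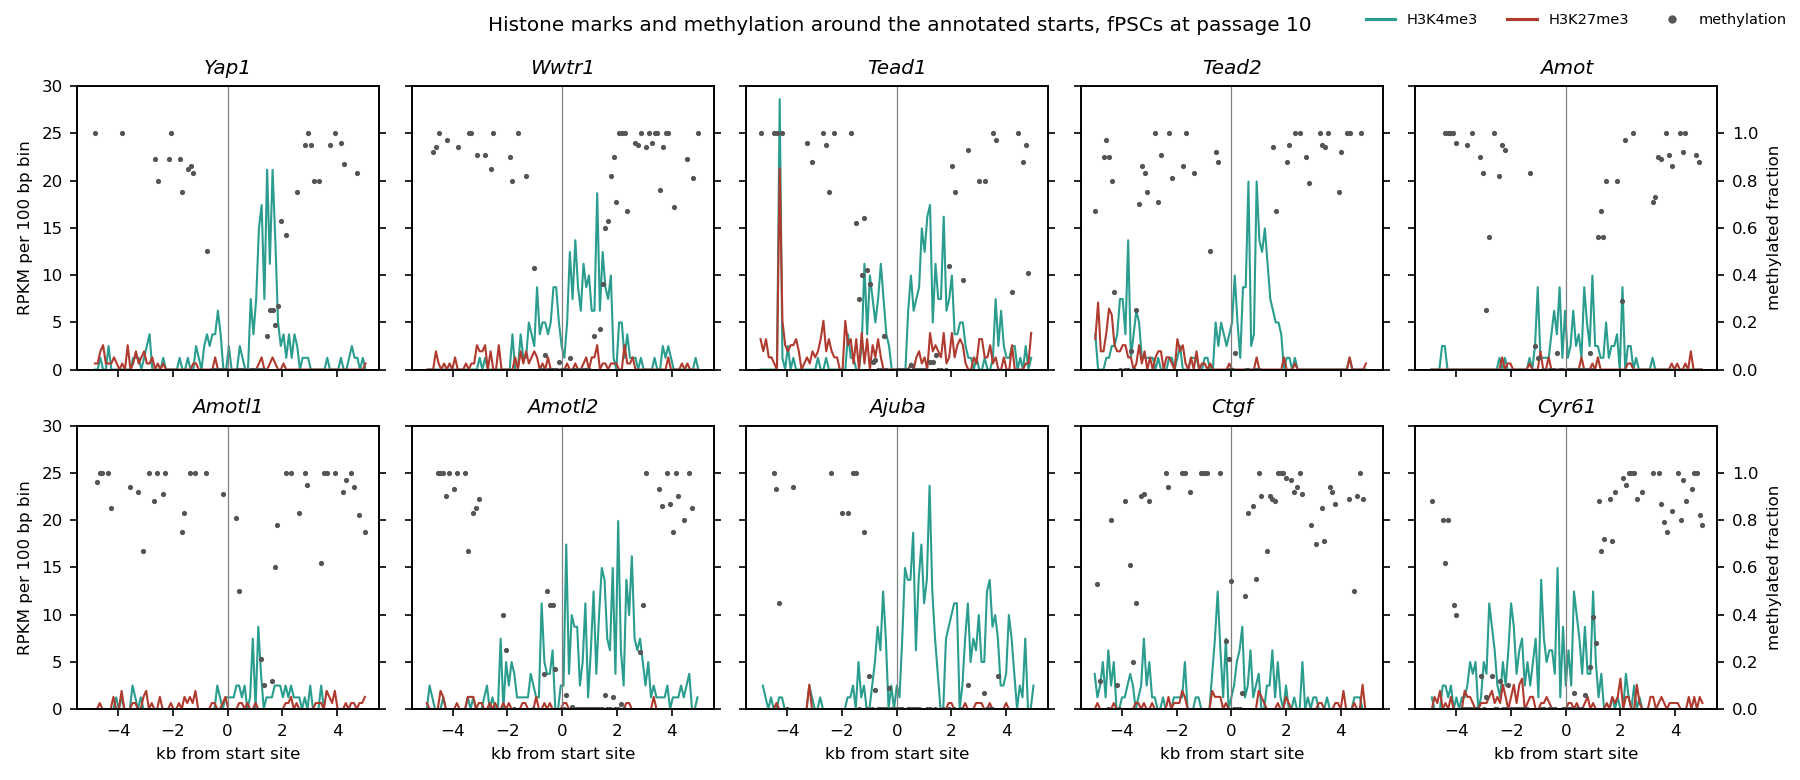
H3K4me3, H3K27me3 and DNA methylation in P10 fPSCs around the annotated starts of the 10 genes, with distance from the start in the direction of transcription on the horizontal axis. Ajuba has the highest mean H3K4me3 within 1000 bp (8.27 RPKM), H3K27me3 within the same distance is highest at Tead1 (mean 0.644 RPKM), and methylation dips at the start of Amot and Cyr61 and not at Amotl1.

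Single fPSCs cells of 4 clones were counted as well, and 181 of 182 had at least 500 genes. The share of cells with at least 1 count, with its exact binomial 95% interval for counting error only, was 79.0% (72.3 to 84.7) for Tead2, 56.4% (48.8 to 63.7) for Tead1 and 55.8% (48.2 to 63.2) for Yap1. Ajuba was at 47.0% (39.5 to 54.5), Amot at 35.9% (28.9 to 43.4) and Amotl1 at 33.1% (26.3 to 40.5). As a background gene Col1a1 was taken, which had under 0.88 FPKM in bulk fPSCs and yet a count in 29.3% of the cells. Wwtr1 (27.6%), Amotl2 (22.7%), Ctgf (16.0%) and Cyr61 (6.08%) lay below that share in the same cells. Wwtr1, Amotl2 and Ctgf nevertheless had 519, 544 and 329 counts in all against 143 for Col1a1, so the share alone does not place them at the background. Cyr61 had 88 counts, fewer than Col1a1. A low share is no sign of low expression either, because Pou5f1 had a count in 9.39% of the cells and Dnmt3b in 99.4%.

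Between the clones Amot ranged from 32.6% to 40.9% of cells, Yap1 from 50% to 59.1%, Tead2 from 73.9% to 86.7%, Tead1 from 45.7% to 75.6% and Amotl1 from 21.7% to 53.3%. Col1a1 ranged from 15.6% to 36.4% between the same clones, above Amotl1 in clones 1 and 4 and equal to Amot in clone 3 (32.6%), so the shares of Amot and Amotl1 were not separated from that of the background gene in every clone. Median counts per cell were 19078, 32356, 33883 and 22634 in clones 1 to 4, so these shares carry differences in depth. With each cell thinned to 2000 counts (179 cells), Tead2 was detected in 25.1%, Yap1 in 15.1%, Tead1 and Ajuba in 12.8% each, Amot in 6.70% and Amotl1 in 4.47%, against 2.79% for Col1a1. The thinned share was 6.15% for Wwtr1 and for Amotl2, above Col1a1, where the unthinned one lay below it. Ctgf (1.68%) and Cyr61 (0.559%) stayed below Col1a1. The order of Wwtr1 and Amotl2 against the background thus depended on the thinning.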

How the data were processed

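RNA-seq of 19 bulk libraries, single-cell RNA-seq of 4 fPSCs clones, ChIP-seq and whole-genome bisulfite sequencing of P10 fPSCs were used. Bulk reads were trimmed by the authors (cutadapt 1.11) and aligned to mouse cDNA (mm9) with TopHat2 2.1.1, and FPKM per gene from Cufflinks 2.1.1 were deposited, so depth is unknown. The first deposit used a total RNA-seq protocol and the second an NEBNext Ultra RNA kit. The deposited ChIP-seq signal was RPKM in bins (reads aligned with Bowtie2 2.2.2), the deposited methylation level was a fraction per window (bs_seeker2), and the deposited single-cell values were counts per gene from Drop-seq tools, with no statement of whether molecules or reads were counted. Single cells had 307 to 722865 counts. Replicates may have been merged in the ChIP-seq and methylation tracks.

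The table held 23608 entries, 4 with a repeated name were left out, and 12513 genes that reached 1 FPKM in 2 or more libraries of the fit were tested. limma 3.58.1 (trend) in R 4.3.3 was fitted to log2(FPKM + 1) of the mESCs, EpiLCs, EpiSCs and 7 fPSCs libraries together, with no covariates. A call required a Benjamini-Hochberg adjusted p under 0.05 over all tested genes and a fold of at least 1.5. No counts were given, so log2(FPKM + 1) was used, and its pseudocount of 1 understates fold changes of low genes. The 10 genes and the pathway and marker lists were chosen with earlier results of these data known, so the 10 genes have values and differences and no test, and the counts over the lists support no direction independently. Other genes were named by a rule: Tead3, Tead4, Lats1, Lats2, Stk3, Stk4, Nf2 and Vgll4 for their role, and up to 4 pathway genes with the largest rise and fall per comparison among those called, without overlap and with a mean of at least 5 FPKM in 1 group. Wwc1, Ptpn14, Nt5e and Mob1b in the Epiblastoids were named outside this rule. Nearest genes were the 3 with the highest r among genes reaching 10 FPKM. The endoderm, fibroblast, primitive streak and mesoderm, pluripotency and trophoblast lists were summed as FPKM, and Eomes and Hand1 stand in 2 of the lists.

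Start sites came from GENCODE vM1 on mm9, where 22089 of 22225 protein-coding gene names had 1 position. Ajuba is annotated there as Jub. The promoter sequence of Ctgf is not reported here. Single cells with fewer than 500 genes were left out, and no doublets were called. The limma step was checked on simulated tables with known changes, in which 57.5% to 78% of genes changed by 1.5 on the log2 scale were recovered over the 5 comparisons. Alternatives were a pseudocount of 0.1, no filter, upper-quartile scaling, a fit of only the groups compared, each fPSCs deposit alone, each library left out, a replicate block, other promoter windows and starts, all cells, and cells thinned to 2000 counts. Tables were handled with Python 3.11.15, pandas 2.3.3, numpy 2.4.6 and scipy 1.17.1.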

Additional observations from a re-analysis of the deposited data

Results flagged for a closer look

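Amot in the 7 fPSCs libraries had 1 value far from the others on the FPKM scale. The 46C library at P24 had 142 FPKM, and its gap to the next library (CMT P11, 32.1 FPKM) was 0.831 of the whole range of the group. This is a description and not a test, since the 10 genes were chosen on these libraries. The screen was run on FPKM and marks about 1 in 20 groups by chance only for normally distributed values. It was not run on the log2(FPKM + 1) scale. There Amot was 7.16 in 46C, 5.05 in CMT P11 and 3.43 at P30, the lowest of the 7. The gap was thus a smaller part of the range than on FPKM, and the flag is given for FPKM only. In the 46C library Cer1 was at 203 FPKM, Foxa2 at 81.9 and Sox17 at 50.6, and the 10 endoderm genes summed to 451 FPKM against 13.3 to 111 in the other 6. The primitive streak and mesoderm list summed to 254 FPKM there, against 29.6 to 78.8 in the others. Amotl2 (8.06 FPKM) and Ajuba (20.3 FPKM) had their lowest fPSCs values there, and Yap1 (52.0 FPKM) lay within the range of the other lines. Whether these transcripts and the Amot level come from the same cells was not tested.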

How the results depend on the processing

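No call of a pathway gene reversed. The differences of the 10 genes changed sign in 26 of 640 settings, spread over 14 differences, and 3 of these were over 0.4 in size: those of Tead1 from mESCs in EpiLCs and fPSCs and of Cyr61 from mESCs in EpiLCs, each without mESCs replicate 1. With the fPSCs of the first deposit alone, fPSCs against EpiLCs gave 7 pathway genes higher and 4 lower (11 in all), and with the second alone 5 higher and 4 lower (9 in all), in place of 3, 2 and 5. Against EpiSCs either deposit alone gave 2 higher in place of 1. EpiSCs against mESCs had 1 gene lower, 0 without the filter on low values and 2 with the EpiSCs numbers crossed in the block, a setting added after seeing the data. Leaving out 1 library, which leaves an arm of 2 with a lone sample assumed to vary like the others, gave 8 to 9 calls for EpiLCs against mESCs (12 with all; 3 to 4 higher, 4 to 6 lower), 16 to 21 for EpiSCs against mESCs (23; 16 to 21 higher, 0 to 2 lower) and 14 to 21 for fPSCs against mESCs (21; 6 to 12 higher, 7 to 10 lower). It gave 2 to 6 for fPSCs against EpiLCs (5; 0 to 4 higher, 1 to 2 lower) and 15 to 22 for fPSCs against EpiSCs (23; 0 to 1 higher, 15 to 21 lower). The causes were not tested beyond the smaller number of samples. Deviations of like-numbered libraries correlated at 0.20 for mESCs with EpiLCs, −0.20 for mESCs with EpiSCs and −0.13 for EpiLCs with EpiSCs. With 2 libraries per group the deviations mirror each other, so these values cannot show whether the replicate numbers pair the libraries. With the number as a replicate block, EpiLCs against mESCs gave 13 calls (7 higher, 6 lower) and EpiSCs against mESCs 24 (23 higher, 1 lower), and with crossed EpiSCs numbers 25. Of the 29 named pathway results 8 lost their call under some alternative. The differences of the 10 genes moved by more than their spread in 32 settings, and H3K4me3, H3K27me3 and methylation percentiles in 24 of 81, mostly where another window or start was used. Without counts or replicate tracks, depth limits the low FPKM values, the chromatin values and the single-cell shares by amounts that cannot be given here.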
